A study of Homo sapiens with 12 samples.

Results

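The genes described here are 10 lysine demethylases of the Jumonji C (JmjC) family outside the KDM6 branch: KDM2A, KDM2B, KDM3A, KDM3B, KDM4A, KDM4B, KDM4C, KDM5A, KDM5B and KDM5C. They were taken as a list of symbols, matched to Ensembl identifiers, and read from the raw read columns of all 12 libraries. All 10 were found in each of the 3 deposited tables, out of 33704 genes present in at least 1 table, and all 10 passed the filter on low counts in every comparison. They are KDM2A (ENSG00000173120) on chromosome 11, KDM2B (ENSG00000089094) on chromosome 12, KDM3A (ENSG00000115548) on chromosome 2, KDM3B (ENSG00000120733) on chromosome 5, KDM4A (ENSG00000066135) on chromosome 1. The others are KDM4B (ENSG00000127663) on chromosome 19, KDM4C (ENSG00000107077) on chromosome 9, KDM5A (ENSG00000073614) on chromosome 12, KDM5B (ENSG00000117139) on chromosome 1 and KDM5C (ENSG00000126012) on chromosome X. The lowest count of any of them in a library was 2180 reads (KDM4C) and the highest 20986 reads (KDM5C).

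JmjC demethylases remove methyl groups from histone lysines by oxidation, and they need iron, molecular oxygen and the metabolite 2-oxoglutarate to do so. KDM2 enzymes act on H3K36 and bind unmethylated CpG islands, KDM3 enzymes act on the lower methylation states of H3K9, KDM4 enzymes on the higher states of H3K9 and on H3K36, and KDM5 enzymes on H3K4 at promoters. The KDM6 enzymes, which clear the Polycomb mark on H3K27, have the same catalytic fold and cofactors. GSK-J4, the compound used here, enters cells as an ester and blocks KDM6 enzymes, and in biochemical assays it also inhibits KDM5 enzymes.

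Messenger RNA was sequenced from Jurkat, an established line grown from a human T-cell leukaemia, in 6 groups of 2 libraries. TAL1-KD cells carried an inducible short hairpin RNA against the transcription factor TAL1 and received 5 µg/ml doxycycline for 72 h, and TAL1-control cells were the same line without doxycycline. UTX-KD and UTX-control cells carried a hairpin against UTX, the product of KDM6A, and were with and without the same doxycycline treatment. J4-2uM cells were Jurkat given 2 µM GSK-J4, a KDM6 demethylase inhibitor, for 72 h, and J4-control cells were given the vehicle DMSO for 72 h. Both hairpin lines grew in Tet-free serum with blasticidin and, by the label of TAL1-control replicate 1, G418, whereas the labels of the J4 groups name neither drug. The induced groups alone received doxycycline, so the drug and the hairpin cannot be told apart, and the labels do not say whether either line was a clone or whether replicates were separate cultures. The p-values here therefore describe the scatter among the sequenced samples alone, and that scatter may be purely technical.

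Counted reads ranged from 55524079 to 82534711 per library, and the 10 demethylases together took 0.1275% to 0.1534% of them. Neither targeted mRNA was shown to be lower in its knockdown libraries: TAL1 differed by -0.07 on the log2 scale (adjusted p = 0.49) and KDM6A by -0.08 (adjusted p = 0.103) by the quasi-likelihood test of edgeR with Benjamini-Hochberg adjustment, so the groups are named below as labelled. By the same test TAL1 mRNA was lower in the other comparisons, by -0.12 in UTX-KD (adjusted p = 0.00155) and by -0.66 with GSK-J4 (adjusted p = 6.02e-10). The 12 markers examined for this T-cell leukaemia line included TAL1, the target of a hairpin. All 12 were present at 30.3 CPM (the share of a library's reads in parts per 1000000, scaled by the trimmed mean of M values, TMM) or more in every library. Their summed level was 4450 to 5230 in TAL1-KD against 3450 to 3600 in TAL1-control, 3500 to 3570 in UTX-KD against 3130 to 3160 in UTX-control, and 2290 to 2350 in J4-2uM against 2400 in J4-control. Of 12 markers of other cell types, CD79A (36.5 to 84.9), COL1A1 (3.03 to 9.35) and CD33 (0.557 to 2.93 CPM) were detected throughout, and the other 9 reached at most 0.393 CPM, with HBG1, EPCAM and KRT19 at 0 in 11 of 12 libraries. CD79A alone made up most of the sum of these 12 in every library. The sum was 89.7 to 97.5 in J4-2uM against 43.9 in J4-control, and 62.2 to 64.1 in UTX-KD against 44.7 to 45.7 in UTX-control. In TAL1-KD it was 72.3 to 77.0, against 81.9 to 82.4 in TAL1-control. The part of either marker sum in the results below was not tested. In these bulk libraries fewer expressing cells and less RNA per cell cannot be told apart.

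Levels were compared between the genes as CPM per kilobase of the longest annotated transcript. KDM5C, an H3K4 demethylase encoded on the X chromosome, had the highest mean over the 12 libraries at 38.3, followed by KDM3B at 29.2, KDM4A at 26.2, KDM2A at 26.1, KDM4B at 22.7 and KDM2B at 21.9. KDM3A at 13.9, KDM5A at 12.9, KDM5B at 11.1 and KDM4C at 8.96 formed the lower part of the order. In J4-control the only neighbours in the order whose replicates overlapped were KDM5A (13.3 ± 0.821, SD, n = 2) and KDM5B (13.04 ± 0.279). In TAL1-control the replicates of KDM4B (23.9 ± 1.40) overlapped with those of KDM2A (23.3 ± 0.739), and those of KDM2A with KDM3B (23.3 ± 0.0889). In UTX-control KDM5C (32.5 ± 0.836) overlapped with KDM3B. Dividing by the median transcript length of each gene in place of the longest put KDM3B first at 304 and KDM5A the third at 252, so the order depends on the length chosen.

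**Figure D1:**
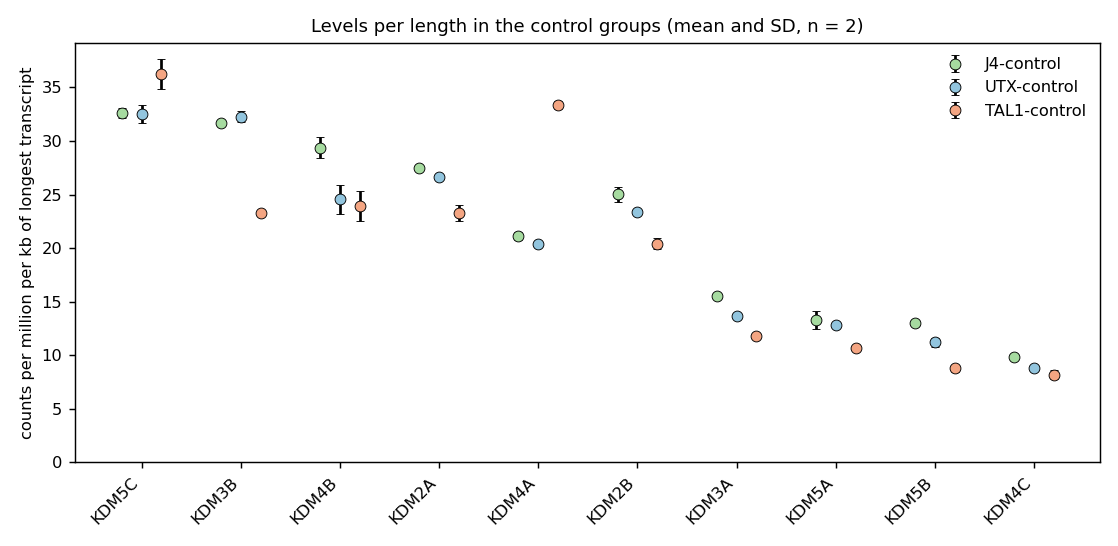
CPM per kilobase of the longest transcript (vertical axis) for the 10 demethylases in J4-control (green), UTX-control (blue) and TAL1-control (orange) libraries. Points are means and bars the SD of 2 libraries. KDM4A stands apart by its high level in TAL1-control, and KDM3B by its low level there.

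The question put to the 3 comparisons was how these other demethylases changed when TAL1 or UTX was targeted or when KDM6 enzymes were inhibited. In TAL1-KD libraries 6 of the 10 were higher than in TAL1-control libraries (KDM2A, KDM3A, KDM3B, KDM5A, KDM5B and KDM5C), with a median log2 fold change of 0.394 over the 10, against -0.0224 over all 16829 genes tested. Among all genes tested there 26.3% were higher and 27.9% lower. None of the 10 was called lower by edgeR, none was lower at an unadjusted p under 0.05, and DESeq2 also called 6 higher and 0 lower.

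In UTX-KD libraries 5 of the 10 fell (KDM2A, KDM2B, KDM3A, KDM3B and KDM4B) and 3 rose (KDM4A, KDM4C and KDM5B), with a median of -0.0496 against 0.00868 over all genes tested. Of all genes 25.2% were higher and 25.3% lower. None of the 10 changed by more than 1.5-fold, a size passed by 10.2% of all tested genes.

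With GSK-J4 7 of the 10 fell (KDM2A, KDM2B, KDM3A, KDM3B, KDM4B, KDM4C and KDM5B) and KDM5C alone was called higher, with a median of -0.283 against 0.00843 over all genes tested. Of all genes 37.9% were higher and 36.9% lower. Only KDM4B changed by more than 1.5-fold, as did 39.1% of all tested genes. Regardless of direction, the median size of change with GSK-J4 was 0.293 over the 10 on the log2 scale, against 0.449 over all genes.

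**Figure D2:**
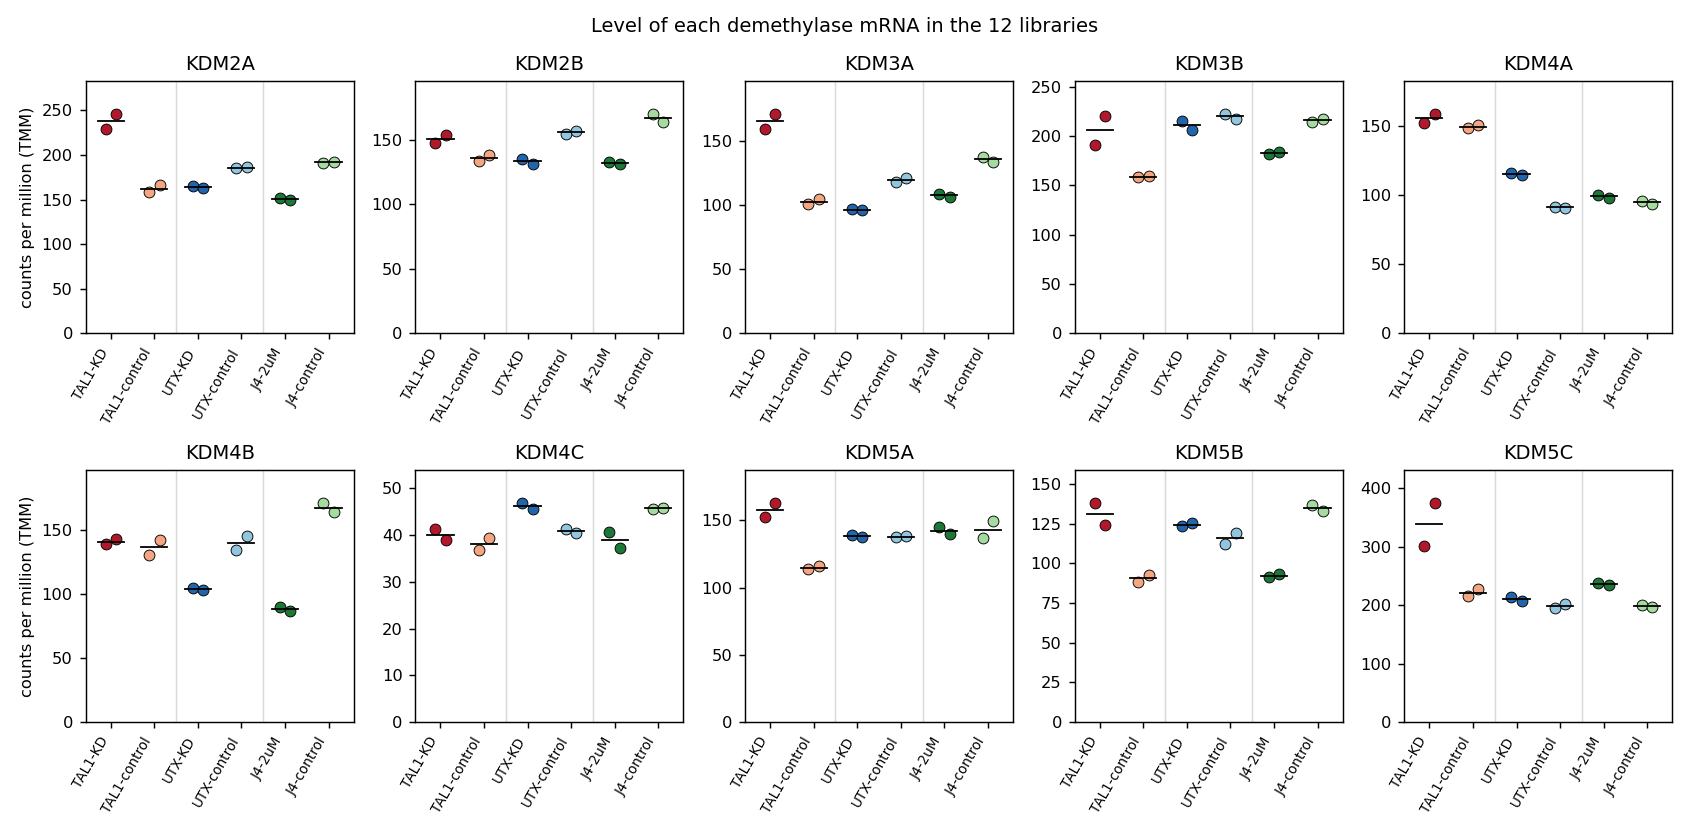
CPM, scaled by TMM over the 12 libraries, for each demethylase (vertical axes start at 0). Each point is a library and each line the mean of 2, with the treated or induced group left of its control. KDM4B falls to 89.6 and 86.7 in J4-2uM libraries, against 171 and 164 in J4-control libraries, and KDM5C is highest in the TAL1-KD libraries.

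KDM2A, an H3K36 demethylase that binds CpG islands, had 229.5 and 246 CPM in TAL1-KD against 159 and 166 in TAL1-control libraries, a log2 fold change of 0.53 (SE 0.08, adjusted p = 0.00166). It had 165 and 163 in UTX-KD against 185 and 186 in UTX-control libraries (-0.20, SE 0.03, adjusted p = 1.52e-05). With GSK-J4 it had 151 and 149.7, against 191 and 192 with vehicle (-0.34, SE 0.03, adjusted p = 3.6e-07). KDM2A was thus above its control in TAL1-KD and below it in the other comparisons, with no overlap between groups in any of them.

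KDM2B recruits a variant Polycomb repressive complex, PRC1.1, to CpG islands. It had 136 and 131.5 CPM in UTX-KD against 155 and 157 in UTX-control libraries (log2 fold change -0.25, SE 0.03, adjusted p = 2.97e-06). With GSK-J4 it had 133 and 131, against 170.2 and 164 with vehicle (-0.33, SE 0.03, adjusted p = 8.9e-07). In TAL1-KD it had 148 and 154 against 134 and 139 in TAL1-control libraries, and the difference of 0.13 (95% interval -0.05 to 0.30) was not called (adjusted p = 0.192). The TAL1-labelled groups did not overlap either. Without TAL1-KD replicate 1 the difference of 0.16 was called, but that fit took its scatter from the TAL1-control pair alone.

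KDM3A, which removes the lower methylation states of H3K9, had 159.5 and 171 CPM in TAL1-KD against 101 and 104 in TAL1-control libraries. This was the largest change of the 10 in that comparison (0.66, SE 0.08, adjusted p = 0.000672), exceeded by 31.2% of all tested genes. It had 96.6 and 96.3 in UTX-KD against 118 and 121 in UTX-control libraries (-0.33, SE 0.03, adjusted p = 1.21e-07). With GSK-J4 it had 109 and 106, against 138 and 134 with vehicle (-0.33, SE 0.03, adjusted p = 8.61e-07). The groups did not overlap in any comparison, and the fall had the same size to 2 decimals in UTX-KD and with GSK-J4.

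KDM3B, the closest relative of KDM3A, had 191 and 221 CPM in TAL1-KD against 158 and 159 in TAL1-control libraries (0.35, SE 0.09, adjusted p = 0.0131). The call was lost without TAL1-control replicate 1 (adjusted p = 0.146) and without TAL1-control replicate 2 (adjusted p = 0.139), with log2 fold changes of 0.35 and 0.36. It had 182 and 184 with GSK-J4, against 214.5 and 217 with vehicle (-0.23, SE 0.03, adjusted p = 1.76e-05). In UTX-KD it had 215 and 206.5 against 222 and 217 in UTX-control libraries. That small fall (-0.08, SE 0.03, adjusted p = 0.0343) was no longer called without UTX-control replicate 1 (-0.07, adjusted p = 0.258), without UTX-control replicate 2 (-0.09, adjusted p = 0.0698) or without UTX-KD replicate 2 (-0.05, adjusted p = 0.17).

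KDM4A demethylates the higher states of H3K9 and H3K36. It had 116 and 114 CPM in UTX-KD against 91.6 and 90.4 in UTX-control libraries, the largest rise of the 10 there (0.32, SE 0.03, adjusted p = 1.71e-07). In J4-2uM it had 100.2 and 97.7 against 95.7 and 93.5 in J4-control libraries (0.07, 95% interval -0.00119 to 0.143, adjusted p = 0.0695), and without J4-2uM replicate 2 this was called (0.08, adjusted p = 0.0272). It had 152 and 159 in TAL1-KD against 148 and 150.3 in TAL1-control libraries (0.04, 95% interval -0.14 to 0.21, adjusted p = 0.713). Of the 3 comparisons KDM4A passed the test in that of UTX-KD alone.

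KDM4B, which has the same substrates, showed the largest fall of the 10. It had 89.6 and 86.7 CPM in J4-2uM against 171 and 164 in J4-control libraries (-0.92, SE 0.04, adjusted p = 6.58e-11). In UTX-KD it had 105 and 103.5 against 135 and 145.5 in UTX-control libraries (-0.45, SE 0.04, adjusted p = 1.98e-08). These falls were exceeded in size by 21.9% and 17.1% of the genes tested in the GSK-J4 and UTX hairpin comparisons. In TAL1-KD it had 139 and 143 against 131 and 142 in TAL1-control libraries, where the groups overlapped (0.02, 95% interval -0.16 to 0.21, adjusted p = 0.815).

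KDM4C had the lowest level of the 10. It had 47.0 and 45.7 CPM in UTX-KD against 41.4 and 40.5 in UTX-control libraries (0.155, SE 0.04, adjusted p = 0.00238) and, in the opposite direction, 40.7 and 37.2 in J4-2uM against 45.7 and 45.8 in J4-control libraries (-0.23, SE 0.04, adjusted p = 0.000382). In TAL1-KD it had 41.3 and 39.0, against 36.75 and 39.45 in TAL1-control libraries, with overlapping groups (0.05, 95% interval -0.15 to 0.26, adjusted p = 0.632). KDM4A, KDM4B and KDM4C therefore did not move as a block: with the UTX hairpin KDM4A and KDM4C rose while KDM4B fell, and none of them passed the test with the TAL1 hairpin.

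KDM5A, an H3K4 demethylase first found as a partner of the retinoblastoma protein, had 152 and 163 CPM in TAL1-KD against 114 and 116 in TAL1-control libraries (0.43, SE 0.08, adjusted p = 0.00294). Without TAL1-control replicate 1 the log2 fold change was 0.42 (adjusted p = 0.0633) and without TAL1-control replicate 2 it was 0.44 (adjusted p = 0.0507). In UTX-KD it had 138.9 and 137.7 against 137.6 and 138.1 in UTX-control libraries (-0.02, 95% interval -0.08 to 0.05, adjusted p = 0.667). With GSK-J4 it had 145 and 139.8, against 137 and 149 with vehicle (95% interval -0.09 to 0.09, adjusted p = 0.95). The groups overlapped in both of these comparisons.

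KDM5B, another H3K4 demethylase, had 138 and 124 CPM in TAL1-KD against 88.5 and 92.7 in TAL1-control libraries (0.51, SE 0.09, adjusted p = 0.00252). With GSK-J4 it moved the other way, with 91.4 and 93.2 against 137 and 133 with vehicle (-0.54, SE 0.03, adjusted p = 8.06e-09). In UTX-KD it had 124 and 125.5 against 113 and 119 in UTX-control libraries. That rise of 0.08 (SE 0.03, adjusted p = 0.0419) was not called by DESeq2 (adjusted p = 0.124), nor without UTX-control replicate 1 (0.04, adjusted p = 0.497) or UTX-KD replicate 2 (0.07, adjusted p = 0.0747), and the authors' deposited table did not call it (adjusted p = 0.126).

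KDM5C had 301 and 375 CPM in TAL1-KD against 215 and 227 in TAL1-control libraries (0.59, SE 0.11, adjusted p = 0.00434), the widest gap between replicates among the 10. It had 238 and 234 in J4-2uM against 201 and 197 in J4-control libraries (0.25, SE 0.03, adjusted p = 7.55e-06). In UTX-KD it had 213 and 207, against 195 and 202 in UTX-control libraries, and the difference of 0.06 (95% interval -0.00411 to 0.127) was not called (adjusted p = 0.112). It was called without UTX-KD replicate 2 (0.08, adjusted p = 0.0276) and under scaling to total reads (0.15, adjusted p = 0.00033). KDM5A, KDM5B and KDM5C were each called higher in TAL1-KD, whereas with GSK-J4 KDM5B fell, KDM5C rose and KDM5A did not pass the test.

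**Figure D3:**
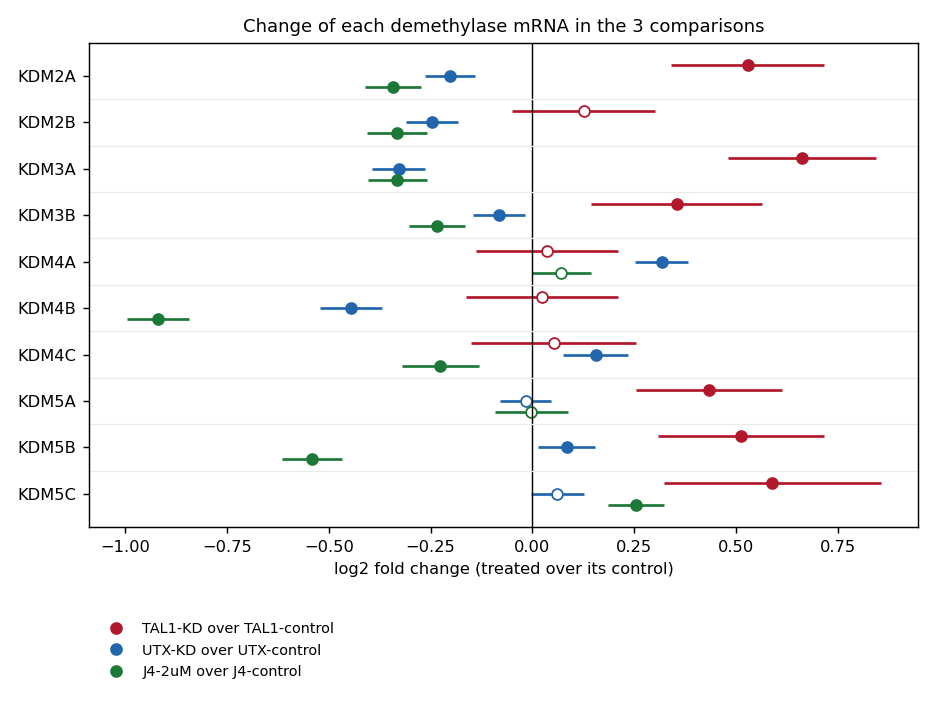
Log2 fold change (horizontal axis) of each demethylase in TAL1-KD over TAL1-control (red), UTX-KD over UTX-control (blue) and J4-2uM over J4-control (green). Bars are 95% confidence intervals of the edgeR fit on 4 libraries, filled points have an adjusted p under 0.05 and open points do not. The red points all lie at or above 0.02, and the green points range from -0.92 for KDM4B to 0.25 for KDM5C.

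Scaling to total counted reads in place of TMM, a choice added after seeing the data, moved the median of all genes by -0.143 in the TAL1-labelled comparison, by 0.0923 in the UTX-labelled one and by 0.171 with GSK-J4. Relative to TMM this turned the uncalled changes of KDM2B, KDM4A, KDM4B and KDM4C in TAL1-KD to values between -0.12 and -0.02, none of them called, and lowered that of KDM3B to 0.21 (adjusted p = 0.0398). In UTX-KD it took KDM3B to 0.010 (adjusted p = 0.791) and KDM5A to 0.076 (adjusted p = 0.0311), and it took KDM2A to -0.11, KDM2B to -0.15, KDM4C to 0.25, KDM5B to 0.18 and KDM5C to 0.15, all called. With GSK-J4 it took KDM5A to 0.17 (adjusted p = 0.00203) and KDM4A to 0.24 (adjusted p = 1.97e-05), brought KDM3B to -0.06 and KDM4C to -0.06, which were not called, and KDM2A, KDM2B and KDM3A to between -0.17 and -0.16, and raised KDM5C to 0.42. Under either scaling the falls of KDM2A, KDM2B, KDM3A and KDM4B in UTX-KD and with GSK-J4, and of KDM5B with GSK-J4, were called. So were the rises of KDM4A, KDM4C and KDM5B in UTX-KD, of KDM5C with GSK-J4 and of the 6 genes in TAL1-KD.

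Long transcripts stood lower than short ones in TAL1-KD libraries: the median log2 fold change of protein-coding genes was 0.242 where the longest transcript was at most 2000 bases and -0.115 where it was over 6000 bases. The 10 demethylases have longest transcripts of 4474 (KDM4A) to 10763 bases (KDM5A). After removal of each library's trend with transcript length and GC content, KDM3A stood at 0.90 and KDM5A at 0.66 in TAL1-KD, and the same 6 genes were called higher. The removal also raised the median of all genes in TAL1-KD from -0.0224 to 0.0841. Over all genes 5590 were then called higher and 4000 lower there, against 4424 and 4696 before it. With GSK-J4 the removal took KDM2B to -0.52 and KDM5C to 0.12, both still called, and in UTX-KD it took KDM3B to -0.14. KDM5C in UTX-KD turned to -0.02 and KDM5B came to 0.06, neither of them called.

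**Figure D4:**
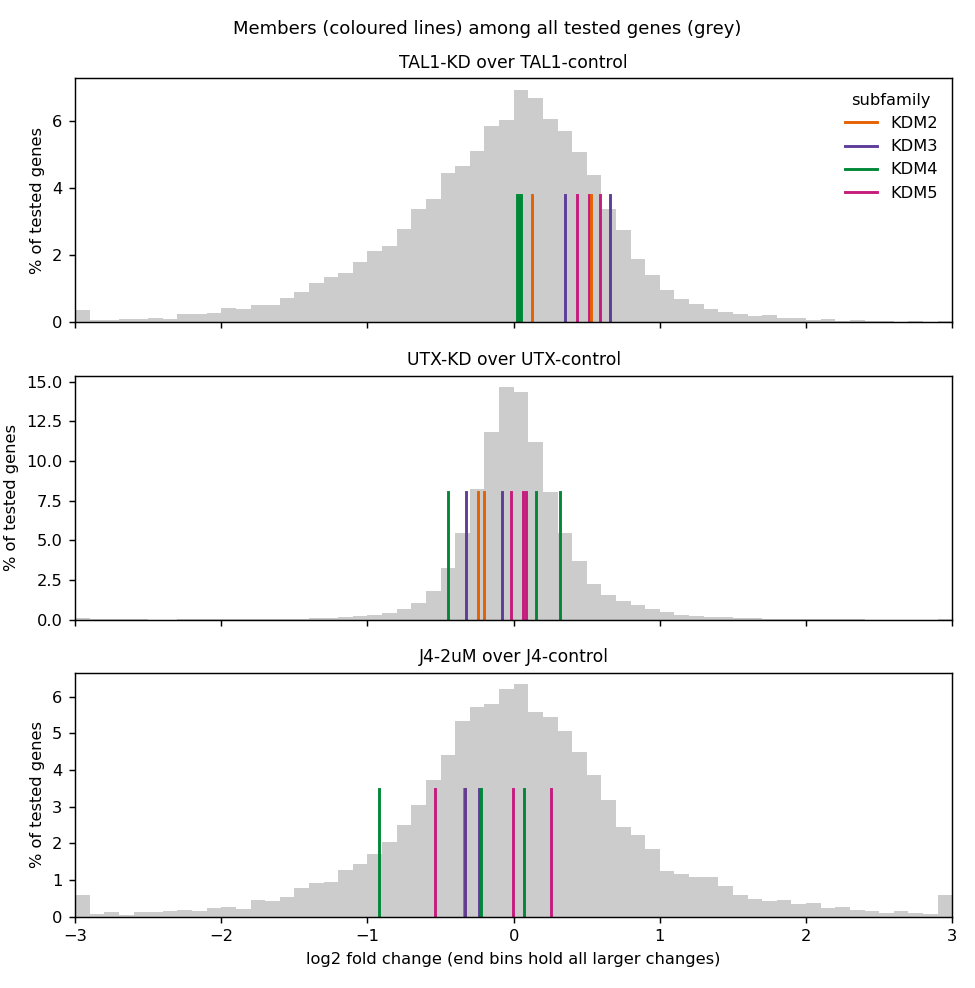
Distribution of log2 fold changes (horizontal axis) over all tested genes (grey bars, percent of genes) in the 3 comparisons, with each demethylase as a vertical line coloured by subfamily. The line heights carry no value. With the TAL1 hairpin all lines lie between 0.02 and 0.66, within the bulk of the genes, and with GSK-J4 the KDM4B line at -0.92 lies farthest out.

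Because a call in 1 comparison and none in another does not show a difference, the responses were compared by the interaction term of the edgeR model over 8 libraries. For UTX-KD minus TAL1-KD 9 of the 10 differed, against 50.1% of all genes tested. KDM3A differed most (-1.02, SE 0.08, adjusted p = 2.9e-05), followed by KDM2A (-0.76, SE 0.08) and KDM5C (-0.56, SE 0.13). KDM4A was the only gene of the 10 with a higher response in UTX-KD (0.25, SE 0.07, adjusted p = 0.0145), and KDM4C was not called (0.07, 95% interval -0.12 to 0.26). The KDM4A difference was lost under length and GC correction (0.12, adjusted p = 0.182) and without TAL1-control replicate 2, UTX-control replicate 1, UTX-control replicate 2 or UTX-KD replicate 1 (adjusted p from 0.0555 to 0.0785). Scaling to total reads took the calls from KDM2B (-0.14) and KDM5B (-0.20) and put KDM4C at 0.34, called (adjusted p = 0.0288).

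For J4-2uM minus TAL1-KD 9 of the 10 differed, against 53.9% of all genes tested, and all 9 had the lower response with GSK-J4. None was higher by edgeR, at an unadjusted p under 0.05 or by DESeq2. KDM5B (-1.08, SE 0.09, adjusted p = 5.64e-06), KDM3A (-1.02, SE 0.08, adjusted p = 4.26e-06), KDM4B (-0.97, SE 0.09) and KDM2A (-0.90, SE 0.08) differed most. KDM4A was not called (0.01, 95% interval -0.17 to 0.18), though scaling to total reads put it at 0.35 (adjusted p = 0.00211). The lower responses of KDM4C (-0.31) and KDM5C (-0.37) came to 0.032 and -0.02 under that scaling and were then not called, nor were KDM2B (-0.14) and KDM5A (-0.12). They also lost the call without some single libraries, KDM4C without TAL1-control replicate 1, J4-control replicate 1, J4-control replicate 2 or J4-2uM replicate 2, and KDM5C without any 1 of the libraries but the TAL1-KD ones.

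For J4-2uM minus UTX-KD 7 of the 10 differed, against 58.4% of all genes tested. KDM5B (-0.62, SE 0.05, adjusted p = 1.34e-11), KDM4B (-0.46, SE 0.05, adjusted p = 1.52e-08) and KDM4C (-0.37, SE 0.06, adjusted p = 5.52e-06) had the lower response with GSK-J4, as did KDM4A, KDM3B and KDM2A by smaller amounts. KDM5C had the higher response with GSK-J4 (0.20, SE 0.05, adjusted p = 0.000523). KDM3A (0.01, 95% interval -0.09 to 0.11), KDM5A (0.02, 95% interval -0.08 to 0.13) and KDM2B (-0.08, 95% interval -0.18 to 0.02) were not called, but after length and GC correction KDM2B was (-0.18, adjusted p = 0.000591). Scaling to total reads took the calls from KDM2A (-0.06) and KDM3B (-0.07), and KDM3B also lost its call without UTX-control replicate 2 (adjusted p = 0.0559).

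The control groups also differed in these genes. Between UTX-control and TAL1-control libraries 9 of the 10 differed, against 72.2% of all genes tested. KDM4A had 91.6 and 90.4 CPM in UTX-control against 148 and 150.3 in TAL1-control libraries (-0.66, SE 0.03, adjusted p = 5.94e-13), and KDM3B had 222 and 217 in UTX-control against 158 and 159 in TAL1-control libraries (0.53, SE 0.03, adjusted p = 1.19e-11). The next in size was KDM5B (0.41, SE 0.04), and KDM4B was not called (0.09, adjusted p = 0.0615). KDM5C was lower in UTX-control (-0.10, adjusted p = 0.0101). Leaving out single libraries put KDM5C between -0.14 (without TAL1-control replicate 1) and -0.07 (without TAL1-control replicate 2 or UTX-control replicate 1). After length and GC correction it stood at 0.06 and was not called, while KDM4B was then called at 0.37. KDM4B was also called with no filter on low counts (0.11), without TAL1-control replicate 2 (0.14) and without UTX-control replicate 1 (0.15). KDM6A, outside the 10, had 30.85 and 31.17 CPM in UTX-control against 56.61 and 57.62 in TAL1-control libraries. In J4-control KDM6A had 39.66 and 39.14, and these levels are given without a test. The line, its hairpin and its handling cannot be told apart here.

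Between J4-control and the mean of TAL1-control and UTX-control 9 of the 10 differed, against 61.3% of all genes tested. The median log2 fold change of all genes was 0.0556 in this fit, but 0.00892 with DESeq2 and -0.00495 with a stricter filter on low counts. Values near 0 thus depend on the scaling. KDM5B (0.43, SE 0.03, adjusted p = 7.77e-10), KDM3A (0.32, SE 0.03, adjusted p = 9.54e-09) and KDM4B (0.31, SE 0.04, adjusted p = 6.22e-07) were higher in J4-control and KDM4A was lower (-0.27, SE 0.03, adjusted p = 7.19e-08). KDM5C was not called (-0.05, adjusted p = 0.182), but this rested on the settings. It was called lower with DESeq2 (-0.09, adjusted p = 0.0185), with no filter on low counts (-0.10), with a stricter filter (-0.08) and after length and GC correction (-0.16, adjusted p = 1e-04). It was also called without TAL1-control replicate 1 (-0.07), UTX-control replicate 1 (-0.11), UTX-control replicate 2 (-0.09) or J4-control replicate 1 (-0.12). KDM2A lost its call after length and GC correction (0.06, adjusted p = 0.0887). KDM4A, which rose in UTX-KD, was thus lower in the UTX-control libraries than in the TAL1-control ones, and KDM4B, which fell with GSK-J4, had its highest control level in J4-control.

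Partners, relatives and opponents of these enzymes were read from lists, each given as counts called and as a median log2 fold change, to be read beside the medians and percentages over all genes above. Of 21 other JmjC-domain genes tested, 8 were higher and 3 lower in TAL1-KD (median 0.156), 8 higher and 3 lower in UTX-KD (median 0.0931), and 7 higher and 8 lower with GSK-J4 (median -0.0692). KDM6B, the other H3K27 demethylase, rose in all 3 comparisons, with log2 fold changes of 0.93 in TAL1-KD, 0.445 in UTX-KD and 0.39 in J4-2uM. KDM6A itself was higher with GSK-J4 (0.44, SE 0.04). JMJD6, a lysyl hydroxylase, was higher in TAL1-KD (1.33, SE 0.13) and lower in UTX-KD (-0.36, SE 0.04). PHF2, a KDM7-type gene, was higher with GSK-J4 (0.75, SE 0.03), and RIOX2, a ribosomal oxygenase, was lower (-1.12, SE 0.04).

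Of 9 genes of the PRC1.1 complex that KDM2B recruits, 6 were higher and 0 lower in TAL1-KD by edgeR (median 0.33), 4 higher and 2 lower in UTX-KD (median 0.0485), and 5 higher and 4 lower with GSK-J4 (median 0.254). The count of lower genes in TAL1-KD was also 0 at an unadjusted p under 0.05 and by DESeq2. BCORL1, a corepressor of the complex, was higher in each comparison (1.16, 0.30 and 0.87 in the order TAL1-KD, UTX-KD and J4-2uM). With GSK-J4, where KDM2B fell, the adaptor YAF2 rose (0.97, SE 0.05), and the deubiquitinase USP7 (-1.46, SE 0.03) and SKP1 (-0.67, SE 0.04) fell.

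Of 10 SIN3 and related partners of KDM5A, 3 were higher and 1 lower in TAL1-KD (median 0.0928), 1 higher and 5 lower in UTX-KD (median -0.0696), and 3 higher and 7 lower with GSK-J4 (median -0.222). The deacetylase genes HDAC2 (-1.27, SE 0.04) and HDAC1 (-0.70, SE 0.03) fell with GSK-J4, where KDM5A was not called. GATAD1 (0.52, SE 0.04) and PHF12 (0.255, SE 0.03) of the same list rose with GSK-J4. Of 9 H3K4 methyltransferases and shared subunits, which write the mark that KDM5 enzymes remove, 5 were higher and 1 lower in TAL1-KD (median 0.303), 0 higher and 6 lower in UTX-KD by edgeR (median -0.11), and 3 higher and 3 lower with GSK-J4 (median 0.076). The 0 in UTX-KD was the same at an unadjusted p under 0.05 and by DESeq2. SETD1B, a catalytic subunit, fell in UTX-KD (-0.25, SE 0.03) and with GSK-J4 (-0.69, SE 0.04), and KMT2D rose in TAL1-KD (0.47, SE 0.09).

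Of 7 H3K9 methyltransferases, which oppose KDM3 and KDM4 enzymes, 2 were higher and 1 lower in TAL1-KD (median 0.134), 4 higher and 2 lower in UTX-KD (median 0.108), and 2 higher and 3 lower with GSK-J4 (median -0.0575). SUV39H2 was lower in TAL1-KD (-0.66, SE 0.09), in UTX-KD (-0.43, SE 0.04) and in J4-2uM (-0.55, SE 0.04), and EHMT2 was higher in TAL1-KD (0.76, SE 0.09). Of 7 H3K36 methyltransferases, 1 was higher and 2 lower in TAL1-KD (median -0.146), 0 higher and 4 lower in UTX-KD by edgeR (median -0.0978, and 0 higher also at an unadjusted p under 0.05 and by DESeq2), and 2 higher and 4 lower with GSK-J4 (median -0.178). SMYD2 was lower in each (-1.23 in TAL1-KD, -0.25 in UTX-KD and -0.66 in J4-2uM). The flavin-dependent demethylases and their CoREST partners had 3 higher and 2 lower of 10 in TAL1-KD (median 0.0497), 3 higher and 5 lower in UTX-KD (median -0.0299), and 2 higher and 7 lower with GSK-J4 (median -0.418). Among them KDM1A, the founding H3K4 demethylase of that class, fell in UTX-KD (-0.25, SE 0.03). PHF21A was higher in each comparison (0.62 in TAL1-KD, 0.34 in UTX-KD and 0.80 in J4-2uM). RCOR2 was lower in each (-0.37, -1.275 and -1.15 in the same order).

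Other 2-oxoglutarate dioxygenases share the cofactors of the JmjC enzymes. Of 12 tested, 5 were higher and 1 lower in TAL1-KD (median 0.226), 0 higher and 7 lower in UTX-KD by edgeR (median -0.211), and 4 higher and 6 lower with GSK-J4 (median -0.128). The 0 in UTX-KD was the same at an unadjusted p under 0.05 and by DESeq2. TET1, a DNA demethylase, rose in TAL1-KD (0.75, SE 0.09), and the oxygen-sensing prolyl hydroxylase genes EGLN1 in UTX-KD (-0.85, SE 0.05) and EGLN3 with GSK-J4 (-1.88, SE 0.06) fell. Of 16 enzymes that make or use 2-oxoglutarate, succinate or fumarate, 6 were higher and 2 lower in TAL1-KD (median 0.112), 1 higher and 8 lower in UTX-KD (median -0.113), and 3 higher and 9 lower with GSK-J4 (median -0.196). IDH1, which makes 2-oxoglutarate in the cytosol, rose in TAL1-KD (1.21, SE 0.08), and FH, which converts fumarate, fell in UTX-KD (-0.43, SE 0.03) and in J4-2uM (-0.48, SE 0.03). SDHA (0.28, SE 0.03) and GOT1 (0.24, SE 0.04) rose with GSK-J4.

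KDM3A, KDM4B and KDM4C are known as genes induced by hypoxia through HIF, which binds short cores ACGTG and GCGTG, and they stand in a list of 14 hypoxia-induced genes with BNIP3 and PDK1. Of the 13 tested in UTX-KD, 10 fell and 3 rose with a median of -0.465, and of 14 tested with GSK-J4 13 fell and 1 rose with a median of -0.973. In TAL1-KD 3 of 13 rose and 2 fell, with a median of 0.0357. BNIP3, a mitophagy receptor, fell in UTX-KD (-1.84, SE 0.06) and with GSK-J4 (-2.26, SE 0.05). PDK1, a kinase that restrains pyruvate oxidation, fell in TAL1-KD (-1.43, SE 0.13), in UTX-KD (-1.05, SE 0.04) and with GSK-J4 (-1.56, SE 0.04). In UTX-KD and with GSK-J4, KDM3A and KDM4B moved in the same direction as BNIP3 and PDK1 but by less, and KDM4C rose in UTX-KD. In TAL1-KD KDM3A rose (0.66, SE 0.08), as did MXI1 (0.85, SE 0.09), while PDK1 and ANKRD37 (-0.82, SE 0.26) fell. MXI1 also rose in UTX-KD (0.17, SE 0.04) and with GSK-J4 (0.34, SE 0.04), where most of the list fell. The list holds the 3 demethylases themselves, so its counts are not separate from theirs.

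The promoters of these 3 genes are shown because these are the 3 demethylases in the hypoxia-induced list, and HIF binds the cores searched. The sequences, from RefSeq on GRCh38.p14, run 5′ to 3′ from 250 bases before to 50 after the start site on the plus strand, at chr2:86441121-86441420, chr19:4968863-4969162 and chr9:6757723-6758022, and capitals mark matches to ACGTG or GCGTG on either strand.
KDM3A: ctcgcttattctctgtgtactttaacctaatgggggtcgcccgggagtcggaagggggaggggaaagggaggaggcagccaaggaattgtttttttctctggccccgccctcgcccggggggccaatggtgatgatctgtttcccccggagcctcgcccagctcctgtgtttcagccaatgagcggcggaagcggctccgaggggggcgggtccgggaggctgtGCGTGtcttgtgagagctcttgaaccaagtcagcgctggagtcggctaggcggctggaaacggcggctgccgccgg
KDM4B: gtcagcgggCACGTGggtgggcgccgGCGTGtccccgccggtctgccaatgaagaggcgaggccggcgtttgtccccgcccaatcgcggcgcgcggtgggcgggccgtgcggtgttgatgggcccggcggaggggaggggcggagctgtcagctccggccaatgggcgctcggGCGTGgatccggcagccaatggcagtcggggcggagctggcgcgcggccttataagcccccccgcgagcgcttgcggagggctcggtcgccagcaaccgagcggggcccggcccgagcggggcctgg
KDM4C: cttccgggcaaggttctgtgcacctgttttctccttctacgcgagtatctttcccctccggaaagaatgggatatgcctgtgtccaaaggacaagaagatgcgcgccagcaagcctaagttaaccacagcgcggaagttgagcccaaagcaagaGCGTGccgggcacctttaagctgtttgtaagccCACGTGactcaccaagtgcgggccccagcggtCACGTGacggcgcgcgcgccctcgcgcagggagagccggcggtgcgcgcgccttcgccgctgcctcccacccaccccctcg

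KDM3A had 1 match, starting at position -26 from the start site, KDM4B had 4 and KDM4C 5. Another KDM3A start in the table, slightly downstream, has a promoter that overlaps the one shown and holds the same match. The capitals CACGTG hold a match on each strand, so that such a site counts as 2 overlapping matches. All 10 genes were found in the promoter table, with 15 promoters in all, of which 12 held ACGTG or GCGTG on either strand, against 48.4% of 35116 promoters of the same length. GCGTG stood in 11 of 15, against 36.5% of all, and ACGTG in 3 of 15 (KDM2B, KDM4B and KDM4C), against 21.4%. Promoters of KDM3B and KDM5C held neither core. The E-box CAGATG, a motif of TAL1 with its partners, stood in the KDM4A promoter alone, against 14.7% of all promoters. The 3 sequences above have GC contents of 64.0%, 76.7% and 62.7%, against a median of 58.7% over all promoters, and a match is a description of the letters and not a binding site.

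Some of the genes followed each other closely over the libraries. After centring within each comparison, the log2 levels of KDM2A correlated with those of KDM3A (r = 0.987 over 12 libraries) and KDM3B (r = 0.963), and KDM2B with KDM4B (r = 0.939), while KDM4A went against KDM2B (r = -0.548) and KDM4B (r = -0.54). Among 10809 genes, those most like KDM2A were PSMD11, a proteasome subunit (r = 0.999), PFDN6 (r = 0.996) and METTL13 (r = 0.996). For KDM3A they were PSMD3 (r = 0.991), SPR (r = 0.991) and METTL13 (r = 0.988), for KDM3B POLR2F (r = 0.995), SMDT1 (r = 0.994) and CLPP (r = 0.992), and for KDM5B AREL1 (r = 0.989), RASGRP1 (r = 0.987) and SEC16A (r = 0.982). These 4 genes were the ones called in all 3 comparisons, and the libraries share scaling and depth, so the values are descriptions. After the centring, the levels hold mainly the changes of the 3 comparisons, each seen in duplicate. An r over 12 libraries thus does not rest on 12 separate observations, and high values are easily reached among 10809 genes.

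The counting sets further limits. The kit was stranded, but the strand setting of the counting is not given in the sources used here, and KDM2B overlaps RNF34 on the opposite strand, whose reads over the 12 libraries came to 35.76% of those of KDM2B. KDM5A overlaps CCDC77 on the opposite strand (25.61%), KDM4A overlaps its antisense gene KDM4A-AS1 (1.69%), and KDM4C overlaps a noncoding RNA on its own strand (14.35%). How alike the sequences are within the KDM4 and KDM5 subfamilies was not measured. Whether reads were assigned to the right gene within a subfamily was not tested, so small differences of these genes are uncertain.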

How the data were processed

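The 12 mRNA libraries of Jurkat cells form 6 groups by label, with 2 libraries in each. The submitters' processing notes name hg19 as the build and, among tools, HTSeq 0.6.1p1, TopHat2 2.0.12 and DESeq2, the last without a version. The annotation and the strand setting are not given in the sources used here. The authors deposited 1 table per comparison with raw read counts per Ensembl gene, which were used for every value here unless the authors' table is named. The deposited log2 fold changes, mean signal over size factors, Wald statistic (a score) and p-values came from DESeq2 per the file headers, and only the log2 values and p-values of the 10 genes were read, for comparison.

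Symbols and transcript lengths came from GENCODE 29. A filter on low counts (filterByExpr, edgeR 4.0.16 under R 4.3.3) was applied, libraries were scaled by TMM, and each comparison was fitted on its own 4 libraries by the two-sided quasi-likelihood test (glmQLFit and glmQLFTest) with Benjamini-Hochberg adjustment over all 16829, 16847 and 17907 genes tested and a threshold of 0.05. Response differences used 8 libraries and control comparisons the 6 control libraries. A standard error was the log2 fold change over the root of F. The fits were also run on simulated data with known changes in few of the genes and the same scatter in both groups. That run could not check the scaling where many genes change, or groups of unequal scatter, and its outcome is not given here.

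The 10 genes and the partner lists were chosen with earlier results of these data known. All 10 are named. From each list, per comparison and direction, up to 2 called genes with the smallest adjusted p could be named, with KDM6A and KDM6B always, and for each of the 10 that was called in all 3 comparisons, the 3 genes with the highest r. The replicate numbers of the labels were checked as pairs: same-numbered libraries deviated together with correlations of 0.199, -0.13 and -0.0387 in the 3 comparisons, so they were not treated as pairs. Alternatives covered thresholds, a fold change minimum, filters, scaling, DESeq2 1.42.0, a replicate block, length and GC correction, 1 fit over 12 libraries, and each library left out. A planned comparison of protein sequences was not made.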

Additional observations from a re-analysis of the deposited data

Results flagged for a closer look

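Each response that differed between 2 comparisons by the edgeR interaction test (adjusted p under 0.05) is given here, as a difference of log2 fold changes over 8 libraries, 2 per group.

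For UTX-KD minus TAL1-KD the differences were -0.76 for KDM2A, -0.40 for KDM2B, -1.02 for KDM3A, -0.47 for KDM3B, 0.25 for KDM4A, -0.50 for KDM4B, -0.48 for KDM5A, -0.46 for KDM5B and -0.56 for KDM5C. The KDM4A difference was called in 4 of the 8 fits that left out a library, and not without TAL1-control replicate 2 (adjusted p = 0.0555), UTX-control replicate 1 (0.0606), UTX-control replicate 2 (0.0785) or UTX-KD replicate 1 (0.0692).

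For J4-2uM minus TAL1-KD they were -0.90 for KDM2A, -0.49 for KDM2B, -1.02 for KDM3A, -0.62 for KDM3B, -0.97 for KDM4B, -0.31 for KDM4C, -0.47 for KDM5A, -1.08 for KDM5B and -0.37 for KDM5C. The KDM5C difference was called in 2 of 8 fits that left out a library, with adjusted p up to 0.123, and was lost without any 1 of TAL1-control replicates 1 and 2, J4-control replicates 1 and 2 or J4-2uM replicates 1 and 2. The KDM4C difference was called in 4 of 8, with adjusted p up to 0.0964, and was lost without TAL1-control replicate 1, J4-control replicate 1, J4-control replicate 2 or J4-2uM replicate 2.

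For J4-2uM minus UTX-KD they were -0.13 for KDM2A, -0.14 for KDM3B, -0.24 for KDM4A, -0.46 for KDM4B, -0.37 for KDM4C, -0.62 for KDM5B and 0.20 for KDM5C. That of KDM3B was lost without UTX-control replicate 2 (adjusted p = 0.0559).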

How the results depend on the processing

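Among the values of single genes under the alternatives, 977 kept their side of the threshold, 66 lost the call and 13 gained it. Among those that kept their side, some uncalled values changed sign. A further 4 values that were called in at least 1 of the fits changed sign, under scaling by total reads, an alternative added after the data were seen: KDM3B in UTX-KD (0.010), KDM5A in UTX-KD (0.076), KDM5A with GSK-J4 (0.17) and KDM4C for J4-2uM minus TAL1-KD (0.032). A test against a 1.2-fold minimum called 0 higher and 2 lower in UTX-KD, 0 higher with GSK-J4, 3 for J4-2uM minus UTX-KD, 3 between UTX-control and TAL1-control and 2 for J4-control. Scaling by total reads called 5 higher in UTX-KD and 3 with GSK-J4, and a threshold of 0.10 called 2 higher with GSK-J4. Leaving out each library gave 1 to 2 higher with GSK-J4, 4 to 7 higher in TAL1-KD, and 2 to 3 higher and 4 to 5 lower in UTX-KD. The fits that left out a library assumed that a lone sample varies like the other group. Over 10810 genes the log2 differences between replicates had an SD of 0.245 in TAL1-KD and 0.0896 in TAL1-control. The call of KDM2B gained without a TAL1-KD library can therefore reflect which pair set the scatter. The same holds for the calls of KDM3B and KDM5A lost without a TAL1-control library. The replicate block called 6 higher in TAL1-KD, 2 higher and 4 lower in UTX-KD, and 1 higher and 7 lower with GSK-J4, and KDM3B (adjusted p = 0.0565) and KDM5B (0.0566) lost their calls in UTX-KD. A block with crossed numbers, added after the data were seen, called 4 higher and 5 lower in UTX-KD. No block was fitted between control groups, which are different lines. Over all genes, scaling by total reads split the calls into 3023 higher and 5497 lower in TAL1-KD (4424 and 4696 with TMM), 6327 and 2693 in UTX-KD (4240 and 4269) 8652 and 4947 with GSK-J4 (6794 and 6616), 6714 and 2281 for UTX-KD minus TAL1-KD (4420 and 4405) and 7692 and 2507 for J4-2uM minus TAL1-KD (5019 and 4791), and length and GC correction gave 4340 higher and 6803 lower in J4-control (6306 and 4476) and 3585 and 5719 for UTX-KD minus TAL1-KD. The planned identity between member proteins was not run. Each gene had at least 2180 reads per library, and the 2 libraries per group also limit the precision.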
